A study of Mus musculus with 12 samples.

Results

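The 8 genes described here encode enzymes that join glutamate to alanine, aspartate, proline, ornithine and phosphoenolpyruvate (PEP): Gpt, Gpt2, Got2, Glud1, Aldh18a1, Prodh, Oat and Pck2. They were taken by symbol, in a list drawn up with earlier results of these data known, and make up 8 of the 17097 genes measured. Each gene was read by 1 probe set, the one with a single gene symbol and the highest mean over the 12 arrays. The cells were CT26, a mouse colon carcinoma line, profiled on Affymetrix 3′ expression arrays in 4 groups of 3 arrays. The STS+OXP group received oxaliplatin, a platinum drug that crosslinks DNA, on top of a starvation medium, and the OXP group received oxaliplatin in the control medium. The STS group was kept in the starvation medium alone (0.5 g/L glucose and 1% serum), and the CTR group in control medium (1.0 g/L glucose and 10% serum). Both media were applied for 48 hours, and per the labels oxaliplatin was added at 10 µM, 24 hours after the medium. The legends of the study's array figures give a higher dose than the labels, and its text is not uniform on the start, so the dose on these arrays is not settled. STS lowers glucose and serum together, so their parts in any value cannot be told apart. All arrays came from 1 cell line, and the labels do not say whether the 3 arrays of a group were separate cultures, so the p-values measure the spread between these arrays, which may be technical.

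Glutamate is the hub of nitrogen exchange in growing cells. Aminotransferases pass its amino group to pyruvate or oxaloacetate to make alanine or aspartate, and glutamate dehydrogenase releases the group as ammonium, each leaving 2-oxoglutarate for the citric acid cycle. Its carbon skeleton is also reduced toward proline or made into ornithine, and mitochondrial PEP carboxykinase turns oxaloacetate into PEP, which lets cells short of glucose draw carbon from glutamine. Several of these genes are known targets of ATF4, the transcription factor of the amino acid response, which binds a C/EBP-ATF composite element.

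Promoter sequences of the 4 genes for which the effect of STS differed with and without oxaliplatin are shown, because these genes moved together (values below). They run 5′ to 3′ on the gene's own strand and cover the 250 bases before the start that the promoter table gives in RefSeq, mouse build GRCm38.p6, which for Pck2 takes in the first 3 bases of the annotated gene. Capitals mark a match to TGATGNAA, the core of the C/EBP-ATF composite element, read on either strand. The windows are chr14:55540016-55540265 on the plus strand for Pck2, chr8:85492326-85492575 on the plus strand for Gpt2, chr19:40588464-40588713 on the minus strand for Aldh18a1 and chr7:132576399-132576648 on the minus strand for Oat.
Pck2: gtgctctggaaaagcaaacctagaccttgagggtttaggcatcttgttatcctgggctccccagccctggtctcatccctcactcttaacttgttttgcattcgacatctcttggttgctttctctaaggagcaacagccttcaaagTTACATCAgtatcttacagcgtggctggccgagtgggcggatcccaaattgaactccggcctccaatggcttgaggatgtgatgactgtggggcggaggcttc
Gpt2: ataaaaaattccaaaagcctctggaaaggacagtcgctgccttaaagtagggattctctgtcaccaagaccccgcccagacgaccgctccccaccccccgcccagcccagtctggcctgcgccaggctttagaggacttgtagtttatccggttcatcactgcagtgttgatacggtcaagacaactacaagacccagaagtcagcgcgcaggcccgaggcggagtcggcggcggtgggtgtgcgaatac
Aldh18a1: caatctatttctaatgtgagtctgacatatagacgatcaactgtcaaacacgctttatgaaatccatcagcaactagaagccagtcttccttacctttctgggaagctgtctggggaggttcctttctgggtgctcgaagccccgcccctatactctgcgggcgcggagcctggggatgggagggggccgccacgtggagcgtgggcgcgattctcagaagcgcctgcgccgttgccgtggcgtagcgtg
Oat: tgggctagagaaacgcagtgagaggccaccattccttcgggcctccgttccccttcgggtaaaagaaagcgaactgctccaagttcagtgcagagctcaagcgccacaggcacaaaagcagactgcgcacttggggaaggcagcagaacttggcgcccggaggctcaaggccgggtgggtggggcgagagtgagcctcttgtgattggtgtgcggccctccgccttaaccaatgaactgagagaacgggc
The match in Pck2 reads TGATGTAA on the strand opposite to the gene and begins 103 bases before its start. Searched over 300 bases (250 before and 50 after the start, both strands), Pck2 was the 1 gene with a match among the 7 with a window, and 3.97% of the 32851 mouse windows in the table held one. The cyclic AMP response element TGACGTCA, a different motif of the same length, was in 0 of the 7 windows and in 1.79% of all windows. Gpt had no window. A match is a description of letters in this window and no more.

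Values are the log2 signals that the authors obtained with RMA, a method that corrects background, normalizes arrays by quantiles and sums the probes of a set. A gene was called when its adjusted p was under 0.05 (limma, 4 group means over the 12 arrays, two-sided, Benjamini-Hochberg over 17097 genes). The 3 arrays a group limit the precision, and the 6 comparisons share arrays, CTR among them, so they are not independent of one another. In bulk RNA, fewer cells with a transcript and less of it per cell cannot be told apart.

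The OXP arrays were not alike. For Gapdh, the probe set at the 3′ end was brighter than that at the 5′ end by 3.85 (log2) on OXP replicate 1, a sign of shortened RNA, and this difference ranged over -0.12 to 0.28 for the remaining 11 arrays. By the root mean square log2 difference over all genes, OXP replicate 2 lay at 0.17 from the STS+OXP arrays. It lay farther from OXP replicates 1 and 3 (0.34 and 0.25). OXP replicate 3 also lay nearer to the STS+OXP arrays (0.24) than to the other OXP arrays (mean 0.27). Values that rest on OXP replicates 1 and 2 are given with and without them. Of 11 epithelial and colon markers, 3 (Epcam, Krt20 and Cdx2) exceeded the background on all 12 arrays and 5 (Cdh1, Krt18, Krt19, Vil1 and Cldn7) on none, whereas all 5 mesenchymal markers exceeded it throughout. The summed linear signal of the epithelial list was 217 to 241 in STS+OXP, 209 to 281 in OXP, 205 to 220 in STS and 215 to 226 in CTR. The summed signal of 5 leukocyte markers was 54.5 to 57.2 in STS+OXP, 50.2 to 86.1 in OXP, 51.8 to 54.1 in STS and 53.5 to 55.7 in CTR, and its highest OXP value went with the macrophage marker Cd68, above background on 2 arrays (mean log2 signal 3.20 for STS+OXP, 4.41 for OXP, 2.96 for STS and 2.94 for CTR), while Cd3e exceeded background on 12 arrays, Adgre1 on 11, and Ptprc and Lyz2 on none. The summed signal of the mesenchymal list was 5996 to 6343 in STS+OXP, 6221 to 6343 in OXP, 6656 to 6901 in STS and 5571 to 6034 in CTR, so that STS did not overlap the other groups. The part of these in the members' values was not tested.

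Expression of 5 of the 8 genes was lower under oxaliplatin. In STS+OXP against CTR, 5 genes were lower (Gpt2, Aldh18a1, Prodh, Oat and Pck2), 0 were higher and 3 (Gpt, Got2 and Glud1) were not called, where 14.2% of all genes were called lower and 16.4% higher. In OXP against CTR the same 5 genes were lower and 0 were higher, beside 13.9% of all genes called lower and 17.5% higher. They were called lower in OXP as well without OXP replicate 1 (log2 fold changes -2.64, -1.64, -0.71, -0.91 and -2.77 for Gpt2, Aldh18a1, Prodh, Oat and Pck2) and without OXP replicate 2 (-2.65, -1.77, -0.47, -0.96 and -3.14). In STS, 4 genes (Gpt2, Aldh18a1, Prodh and Oat) were lower and 0 higher, beside 6.74% of all genes called lower and 9.75% higher. The median log2 fold change of the 8 genes was -0.68 in STS+OXP, -0.77 in OXP and -0.47 in STS, each against CTR, and that of all genes was 0.0005, -0.01 and -0.03 in the same order.

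**Figure D1:**
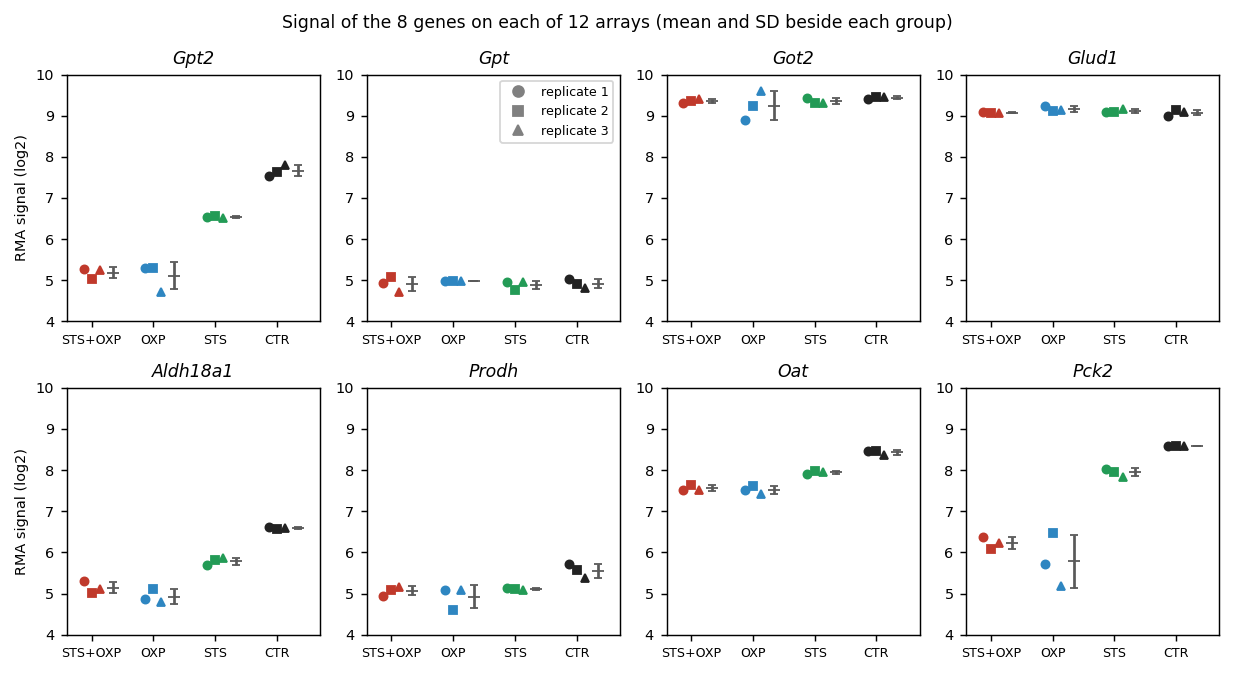
RMA signal (log2, vertical axis) of the 8 genes on each array, by group; circles, squares and triangles are replicates 1, 2 and 3, and the bar beside each group is its mean ± SD (n = 3). Gpt2, Aldh18a1, Oat and Pck2 are lowest in the STS+OXP and OXP groups and intermediate in STS, Prodh is lower in all 3 treated groups, and Gpt, Got2 and Glud1 stay near their CTR level.

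Gpt2, the mitochondrial alanine aminotransferase, makes 2-oxoglutarate and alanine out of glutamate and pyruvate. Its signal was 5.28, 5.03 and 5.24 in STS+OXP, 5.30, 5.31 and 4.73 in OXP, 6.54, 6.55 and 6.51 in STS and 7.54, 7.63 and 7.81 in CTR. The groups formed 3 separate levels: both oxaliplatin groups overlapped each other and lay below every STS array, and every STS array lay below every CTR array. Relative to CTR, the linear signal was 18.0% in STS+OXP, 17.1% in OXP and 45.7% in STS, log2 fold changes of -2.48 (adjusted p = 9.79e-09), -2.55 (adjusted p = 7.71e-09) and -1.13 (adjusted p = 6.47e-05), with a standard error of 0.136 each. Ordered by fold change from the lowest, Gpt2 ranked 31 in STS+OXP, 25 in OXP and 54 in STS among the 17097 genes. It was also lower in STS+OXP than in STS, the log2 fold change being -1.35 (adjusted p = 6.46e-06), and between STS+OXP and OXP the difference was 0.07 (95% interval -0.22 to 0.37).

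Gpt2 was measured by 3 probe sets, and all of them were lower than CTR in every treated group. The set above, 1455007_PM_s_at, carries the suffix Affymetrix gives to sets that can match more than 1 transcript. The sets 1439029_PM_at and 1434542_PM_at gave log2 fold changes of -1.18 and -2.20 in STS+OXP, -1.21 and -2.48 in OXP, and -0.87 and -1.34 in STS. In STS+OXP against STS, 1434542_PM_at fell by 0.86 (adjusted p = 0.00191 over all probe sets) and 1439029_PM_at had -0.31 (adjusted p = 0.0982, not called).

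Gpt, the cytosolic alanine aminotransferase known best in liver, had a signal of 4.93, 5.08 and 4.72 in STS+OXP, 4.99, 4.98 and 4.99 in OXP, 4.95, 4.77 and 4.95 in STS and 5.03, 4.91 and 4.81 in CTR. All 4 groups overlapped. The 95% intervals of its log2 fold change against CTR were -0.21 to 0.20 in STS+OXP, -0.14 to 0.27 in OXP and -0.23 to 0.18 in STS, and none was called (adjusted p = 0.978, 0.675 and 0.888). Its 1 probe set lay above the highest of 22 nonspecific control sets on all arrays, and below the brightest control, that of GC class 25, on 11 of 12.

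Got2, the mitochondrial aspartate aminotransferase of the malate-aspartate shuttle, had a signal of 9.32, 9.35 and 9.41 in STS+OXP, 8.89, 9.24 and 9.60 in OXP, 9.44, 9.31 and 9.31 in STS and 9.40, 9.46 and 9.45 in CTR. The OXP arrays spread the widest and enclosed all the others. No comparison was called, and the 95% intervals against CTR were -0.36 to 0.20 in STS+OXP, -0.48 to 0.09 in OXP and -0.37 to 0.20 in STS. Its value in OXP was -0.19 with all arrays, -0.02 without OXP replicate 1 (adjusted p = 0.923), -0.20 without OXP replicate 2 (adjusted p = 0.399) and -0.37 without OXP replicate 3, the highest array (adjusted p = 0.0115, called).

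A second probe set of Got2, 1417716_PM_at, had 6.39, 5.92 and 6.57 in STS+OXP, 4.44, 6.55 and 6.64 in OXP, 6.75, 6.54 and 6.50 in STS and 6.98, 6.97 and 7.09 in CTR. Every treated array lay below CTR, and the lowest by far was OXP replicate 1, the array with the high Gapdh 3′ to 5′ difference. Its fold changes were not called (adjusted p over all probe sets 0.309 in STS+OXP, 0.0812 in OXP and 0.651 in STS). The remaining set, 1430397_PM_at, had a mean signal of 3.74, close to background.

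Glud1, glutamate dehydrogenase, had a signal of 9.09, 9.08 and 9.06 in STS+OXP, 9.24, 9.11 and 9.13 in OXP, 9.10, 9.08 and 9.16 in STS and 9.00, 9.13 and 9.09 in CTR. The STS+OXP arrays lay just below all OXP arrays (log2 difference -0.09, adjusted p = 0.632), and otherwise each treated group overlapped CTR. No comparison was called, and the 95% intervals against CTR were -0.14 to 0.14 in STS+OXP, -0.06 to 0.23 in OXP and -0.10 to 0.18 in STS. The other probe set of Glud1, 1416209_PM_at, gave a different answer. It had 8.37, 8.35 and 8.48 in STS+OXP, 8.72, 8.56 and 8.72 in OXP, 8.52, 8.49 and 8.53 in STS and 8.84, 8.77 and 8.79 in CTR, with every treated array below CTR. Over all probe sets its log2 fold change was -0.40 in STS+OXP (adjusted p = 0.000588), -0.13 in OXP (adjusted p = 0.203) and -0.29 in STS (adjusted p = 0.0141), so whether Glud1 fell in STS+OXP and STS depends on the probe set.

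**Figure D2:**
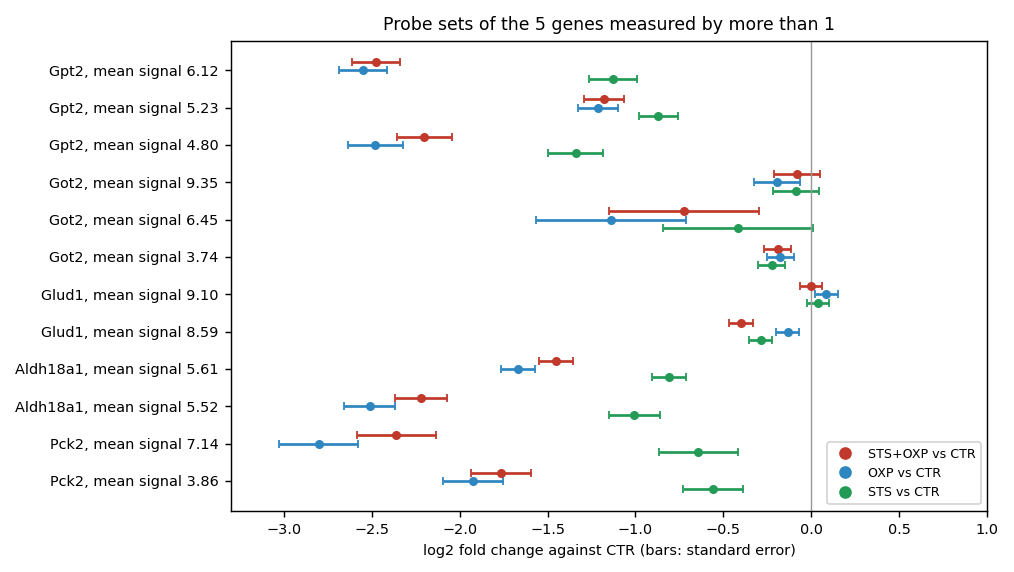
Log2 fold change against CTR (horizontal axis, ± standard error) for all probe sets of the 5 genes with more than 1, labelled by mean signal (log2) over the 12 arrays; red is STS+OXP, blue OXP and green STS. All sets of Gpt2, Aldh18a1 and Pck2 lie to the left of 0 in the 3 treatments, while 1 of the 2 sets of Glud1 lies at 0 and the other to its left.

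Aldh18a1 encodes pyrroline-5-carboxylate synthase, the enzyme that commits glutamate to proline and ornithine. Its signal was 5.30, 5.03 and 5.10 in STS+OXP, 4.87, 5.12 and 4.79 in OXP, 5.69, 5.81 and 5.86 in STS and 6.62, 6.58 and 6.59 in CTR. As for Gpt2, the oxaliplatin groups overlapped each other, and the STS arrays lay between them and CTR with no overlap on either side. The signal was 36.5% of CTR in STS+OXP, 31.5% in OXP and 57.1% in STS (log2 fold changes -1.45, -1.67 and -0.81, standard error 0.096, adjusted p = 6.13e-08, 1.62e-08 and 5.89e-05). Against STS it was lower in STS+OXP by a log2 fold change of -0.64 (adjusted p = 0.000218). Against OXP the difference was 0.22 (95% interval 0.01 to 0.42, unadjusted p = 0.0426, adjusted p = 0.377). The set used, 1437333_PM_x_at, carries a suffix for possible cross-hybridization, and the other set, 1415836_PM_at, had larger changes in the same direction (-2.22 in STS+OXP, -2.51 in OXP and -1.01 in STS).

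Oat, ornithine aminotransferase, moves the amino group of ornithine onto 2-oxoglutarate and so ties ornithine to the same pool of glutamate and pyrroline-5-carboxylate. Its signal was 7.52, 7.65 and 7.52 in STS+OXP, 7.52, 7.62 and 7.43 in OXP, 7.90, 7.98 and 7.96 in STS and 8.47, 8.47 and 8.36 in CTR. Again STS stood between CTR and the overlapping oxaliplatin groups. The signal was 54.7% of CTR in STS+OXP, 53.1% in OXP and 71.3% in STS (log2 fold changes -0.87, -0.91 and -0.49, standard error 0.073, adjusted p = 5.83e-07, 3.82e-07 and 0.000394). It was lower in STS+OXP than in STS the log2 fold change being -0.38 (adjusted p = 0.00154), and STS+OXP differed from OXP by 0.04 (95% interval -0.12 to 0.20).

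Prodh, proline dehydrogenase, catalyses the first step of proline breakdown and is known in human cells as a target of p53. Its signal was 4.95, 5.09 and 5.17 in STS+OXP, 5.08, 4.60 and 5.08 in OXP, 5.13, 5.10 and 5.08 in STS and 5.72, 5.56 and 5.38 in CTR. All treated arrays lay below all CTR arrays and overlapped one another, so that Prodh did not show the intermediate STS level of Gpt2, Aldh18a1 and Oat. The log2 fold change was -0.49 in STS+OXP (adjusted p = 0.00776), -0.63 in OXP (adjusted p = 0.00118) and -0.45 in STS (adjusted p = 0.024), with a standard error of 0.124. Without OXP replicate 2, the lowest array, the OXP value was -0.47 (adjusted p = 0.00201). The call in STS was lost without any 1 of 5 arrays, at adjusted p = 0.115 without CTR replicate 1, 0.0597 without CTR replicate 2, and 0.0609, 0.0681 and 0.0798 without STS replicates 1, 2 and 3. Like that of Gpt, the mean of Prodh in each group lay below the highest GC class 25 value of the group.

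Pck2, mitochondrial PEP carboxykinase, had the largest fall of the 8 genes in OXP. Its signal was 6.37, 6.09 and 6.22 in STS+OXP, 5.71, 6.46 and 5.18 in OXP, 8.03, 7.96 and 7.84 in STS, and 8.59 on each of the CTR arrays. The STS arrays lay below CTR and above both oxaliplatin groups, and the OXP arrays spread over a wider range than those of STS+OXP and enclosed them. The signal was 19.5% of CTR in STS+OXP, 14.3% in OXP and 64.0% in STS. The log2 fold change was -2.36 in STS+OXP (adjusted p = 1.65e-06) and -2.80 in OXP (adjusted p = 3.27e-07), with a standard error of 0.22, and in the order of all genes Pck2 ranked 39 in STS+OXP and 12 in OXP from the lowest.

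In STS the log2 fold change of Pck2 was -0.64 (95% interval -1.12 to -0.17, adjusted p = 0.0658), which was not called although the groups did not overlap. The SD was 0.095 in STS and 0.0021 in CTR against 0.643 in OXP, and the 4 groups share 1 estimate of the spread. When only the STS and CTR arrays were fitted, the same fold change had adjusted p = 7.05e-05, and without OXP replicate 2 or 3 it had adjusted p = 0.00162 and 0.0096. A second probe set, 1452620_PM_at, was below background on every array of STS+OXP and of OXP, which made Pck2 at least 2.52-fold lower in STS+OXP and at least 2.83-fold lower in OXP than in CTR on that set.

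Pck1, the cytosolic PEP carboxykinase of liver and kidney, was below background on all 12 arrays, and Prodh2, which acts on hydroxyproline, exceeded it on 1 array of OXP. Got1, the cytosolic partner of Got2, was not analysed here. Psat1, the aminotransferase of serine synthesis that also draws on glutamate, had a mean signal of 8.32 for STS+OXP, 8.33 for OXP, 9.94 for STS and 10.38 for CTR, with no overlap between the oxaliplatin groups and STS or between STS and CTR.

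**Figure D3:**
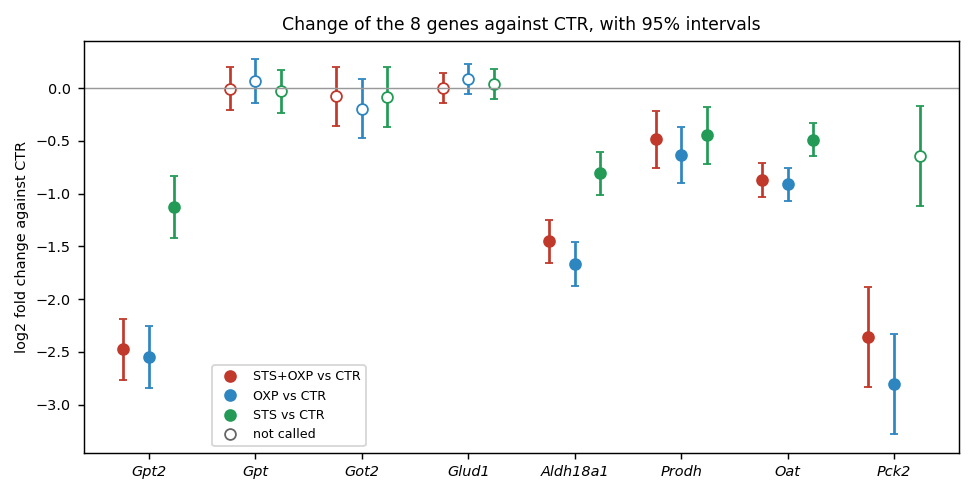
Log2 fold change against CTR (vertical axis) of the 8 genes with 95% intervals from limma; red is STS+OXP, blue OXP and green STS, filled points were called and open points were not. Gpt2, Aldh18a1, Oat and Pck2 have larger falls with oxaliplatin than with STS alone, and the 9 values of Gpt, Got2 and Glud1 lie near 0 and are open.

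Adding oxaliplatin to starved cells lowered 4 of the 8 genes again. In STS+OXP against STS, Gpt2, Aldh18a1, Oat and Pck2 were lower and 0 were higher, beside 11.2% of all genes called lower and 10.8% higher. Among the 8, Pck2 changed most (-1.72 on the log2 scale, adjusted p = 5.78e-05). Prodh differed by -0.04 (95% interval -0.30 to 0.23), and Gpt, Got2 and Glud1 were not called. The median of the 8 genes was -0.21, and that of all genes 0.04.

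Adding starvation to oxaliplatin gave no call for any of the 8 genes. In STS+OXP against OXP, 0 were called by limma, beside 0.00585% of all genes called lower and 0.00585% higher, which is 1 gene each. An unadjusted p under 0.05 (limma) was found for 1 of the 8 genes, Aldh18a1, and for 2160 of all 17097 genes. Pck2 had the highest value, 0.44 (95% interval -0.03 to 0.92, adjusted p = 0.437). This comparison turns on OXP replicate 2, the array that lay nearest to the STS+OXP arrays. Without it, Pck2 was called higher in STS+OXP (log2 fold change 0.78, adjusted p = 0.00315), Aldh18a1 had 0.31 (adjusted p = 0.0575) and the other 6 genes were not called, beside 4.44% of all genes called lower and 2.38% higher. With OXP replicate 1 left out as well, so that the spread of the single OXP array was taken from the rest, the value of Pck2 was 1.04 (adjusted p = 0.000154). Without OXP replicate 1 alone, none of the 8 genes was called, and the value of Pck2 was 0.40 (adjusted p = 0.639). Without OXP replicate 3, the lowest array for Pck2, it was 0.14 (adjusted p = 0.739), so that its size depends on which OXP arrays are used.

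The effect of STS differed with and without oxaliplatin for 4 of the 8 genes. The interaction, the log2 change by STS with oxaliplatin (STS+OXP minus OXP) less that without (STS minus CTR), was positive and called for 4 genes and called negative for 0, beside 2.53% of all genes called higher and 5.76% lower. It was 1.20 for Gpt2 (standard error 0.192, adjusted p = 0.00147), 1.02 for Aldh18a1 (0.136, adjusted p = 0.000342), 0.53 for Oat (0.103, adjusted p = 0.00588) and 1.08 for Pck2 (0.311, adjusted p = 0.0491). With oxaliplatin the STS changes of Gpt2, Aldh18a1, Oat and Pck2 were 0.07, 0.22, 0.04 and 0.44, none of them called, and without it they were -1.13, -0.81, -0.49 and -0.64, all but that of Pck2 called. The interaction of Prodh was not called (0.60, adjusted p = 0.0546). It was called without CTR replicate 3, OXP replicate 1 or OXP replicate 3 (adjusted p = 0.0449, 0.0246 and 0.0344), and under median centring, cyclic loess or a test of genes above the median signal (adjusted p = 0.0401, 0.0432 and 0.0416). The intervals of Gpt (-0.33 to 0.24), Got2 (-0.20 to 0.60) and Glud1 (-0.33 to 0.08) included 0. The median over the 8 genes was 0.56 and over all genes 0.03.

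The interaction of Pck2 lay close to the threshold. When limma tested all probe sets together, the set used had adjusted p = 0.0806. On the second set, 1452620_PM_at, the interaction was 0.72 (adjusted p = 0.137, not called), with both oxaliplatin groups below background. In the test by gene, leaving out any 1 of 10 arrays ended the call, OXP replicates 2 and 3 being the exceptions. The adjusted p was then between 0.0607 (without OXP replicate 1) and 0.12 (without STS replicate 3). Without OXP replicate 3 the interaction was 0.78 (adjusted p = 0.0476). Without OXP replicate 2 it was 1.42 (adjusted p = 0.000169), and in the same setting Gpt2 had 1.30, Aldh18a1 1.12 and Oat 0.58 (adjusted p = 0.000613, 5.33e-05 and 0.00287). Without OXP replicate 1, the interactions of Gpt2, Aldh18a1, Oat and Pck2 were 1.30, 1.00, 0.53 and 1.05 (adjusted p = 0.000529, 0.000489, 0.00799 and 0.0607). In the oxaliplatin groups the mean signals of Gpt2 and Aldh18a1 lay above the 22 nonspecific sets but below the GC class 25 control. If that control were the floor, Gpt2 would be at least 4.14-fold lower in STS+OXP and at least 4.67-fold lower in OXP than in CTR, and Aldh18a1 at least 1.98-fold and 2.57-fold lower. The part of that control's level in the interaction was not tested. The signals of Oat and Pck2 lay above both controls in the mean of every group. For Pck2 in OXP the margin was narrow (mean 5.79, highest GC class 25 value 5.71). On OXP replicate 3, Pck2 (5.18) lay below that control (5.71).

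**Figure D4:**
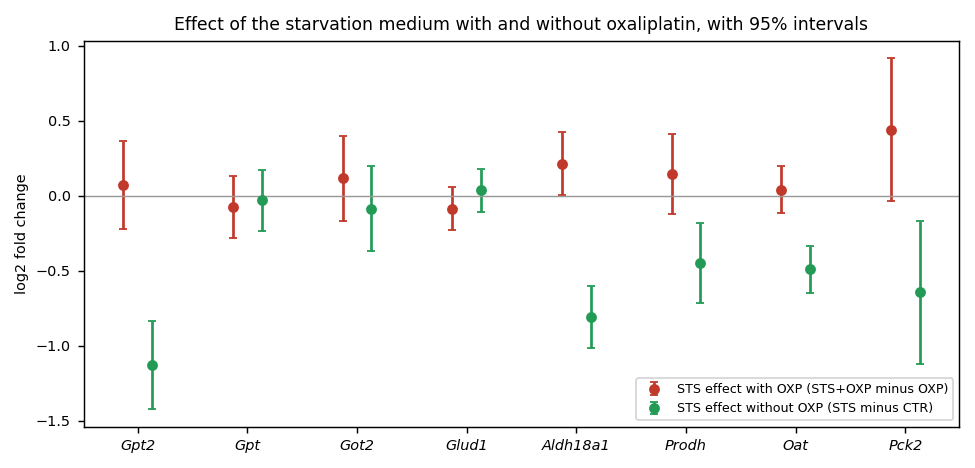
Log2 fold change by STS (vertical axis) with 95% intervals from limma, in the presence of oxaliplatin (red, STS+OXP minus OXP) and in its absence (green, STS minus CTR), for each of the 8 genes. The green points of Gpt2, Aldh18a1, Prodh, Oat and Pck2 lie below 0 and the red points lie at or above it.

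Other users of glutamate were counted from a list. Of 9 measured partners of 12 listed (aminotransferases, asparagine synthetase, and carriers of glutamine, glutamate and related amino acids), 7 were lower and 0 higher in STS+OXP, 7 lower and 1 higher in OXP, and 5 lower and 0 higher in STS, each against CTR, with medians of -0.78, -0.84 and -0.44. The largest change in all 3 was that of Bcat1, the cytosolic branched-chain aminotransferase (-2.85, -2.86 and -1.14, adjusted p = 7.25e-10, 6.91e-10 and 1.41e-05). Psat1 followed in STS+OXP (-2.06) and OXP (-2.05), and Asns, asparagine synthetase, in STS (-0.70, adjusted p = 0.00035). Of the 9, 5 had a called positive interaction, and 0 a negative one. Bcat2 and Slc7a11, counted among the lower genes in each treatment and among the 5 positive interactions, exceeded background on 4 and 0 of the 12 arrays.

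Proline, ornithine and arginine genes went both ways. Of 11 measured of 13 listed, 3 were lower and 3 higher in STS+OXP, 2 lower and 3 higher in OXP, and 1 lower and 0 higher in STS, with medians of -0.05, -0.11 and -0.07. Those that rose most were arginine makers. Ass1, argininosuccinate synthase, rose by 2.57 in STS+OXP and 2.73 in OXP (adjusted p = 3.31e-08 and 1.83e-08). Asl, argininosuccinate lyase, rose by 0.91 in STS+OXP and 0.82 in OXP (adjusted p = 3.72e-05 and 9.2e-05). Odc1, which turns ornithine into putrescine, had log2 fold changes of -0.93 in STS+OXP, -0.78 in OXP and -0.48 in STS (adjusted p = 3.02e-05, 0.000157 and 0.0133). None of the 11 had a called interaction.

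Genes at the PEP, pyruvate and malate junction changed little. Of 8 measured of 10 listed, 1 was lower in STS+OXP (Pkm, pyruvate kinase, -0.70, adjusted p = 0.00486), 1 was higher in OXP (Mpc1, a subunit of the mitochondrial pyruvate carrier, 0.28, adjusted p = 0.0128) and 0 were called in STS. Their medians were -0.14, 0.02 and 0.001.

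ATF4 response genes were counted because several of the 8 genes are known targets of ATF4. Of 18 measured of 19 listed, 11 were lower and 2 higher in STS+OXP, 12 lower and 2 higher in OXP, and 13 lower and 0 higher in STS, with medians of -0.79, -1.28 and -0.77. Trib3, a pseudokinase induced by ATF4, had log2 fold changes of -2.60, -3.19 and -2.45 in STS+OXP, OXP and STS. Shmt2, the mitochondrial serine hydroxymethyltransferase, had -2.52 in STS+OXP and -3.03 in OXP, and Ddit3, the stress factor CHOP, had -1.69 in STS (adjusted p = 5.21e-06, 9.22e-07 and 0.000615). Of the 18 genes, 13 had a called positive interaction and 0 a negative one, and the median was 0.98. In STS+OXP against STS, 4 of the 8 genes were lower and 0 higher, with a median of -0.21. There 5 of the 18 were lower and 5 higher, with a median of -0.16, beside 11.2% of all genes called lower and 10.8% higher. A part of ATF4 in the members' values was not tested. Atf4 itself, singled out after its values were seen, had -0.73 in STS+OXP, -1.04 in OXP and -0.43 in STS (adjusted p = 0.000476, 2.14e-05 and 0.0349).

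p53 targets moved the other way under oxaliplatin. Of 15 measured of 17 listed, 12 were higher and 0 lower in STS+OXP, 12 higher and 0 lower in OXP, and 3 higher and 6 lower in STS, with medians of 1.65, 1.82 and -0.24. Trp53inp1 had the largest change in each (4.20, 4.18 and 1.12), followed by Mdm2, the ubiquitin ligase of p53, in STS+OXP (3.02) and OXP (3.42), and by Plk2, a kinase, in STS (-0.84). Prodh was lower in all 3 treatments.

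The genes whose pattern over the 12 arrays was most like that of each member were found by the root mean square difference after each gene was centred on its mean. For Gpt2 these were Bcat1 (0.207) and Cdkn3 (0.210), where a flat profile would differ from Gpt2 by 1.07. For Pck2 they were Slc7a5, the large neutral amino acid carrier (0.167), and Tpx2 (0.207), against 1.19 for a flat profile. Aldh18a1 was nearest to Xpot (0.125) and Spcs3 (0.134), against 0.657, Oat to Far1 (0.070) and Srprb (0.077), against 0.372, and Prodh to Alg8 (0.109) and Fstl3 (0.110), against 0.275. For Got2 (Eef2 and Zdhhc7), Glud1 (Eef1a1 and Fam221a) and Gpt (Dxo and Nat8f2) the distances were 0.065 and 0.067, 0.034 and 0.034, and 0.056 and 0.064, against 0.165, 0.056 and 0.103 for a flat profile. Fam221a and Nat8f2 had mean signals of 2.67 and 2.93, below the background of 3.21 to 3.72.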

How the data were processed

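RNA from the 12 CT26 samples (RNeasy, 3′ IVT labelling, GeneAtlas arrays) was processed by the authors with RMA in R 3.02, and the deposited values are log2 signals of 45141 probe sets. Of these, 28898 carry 1 gene symbol in the platform annotation, 551 several, 15588 none and 104 are controls. The probe set with the highest mean stood for each of 17097 genes, with no filter on low values. limma 3.58.1 in R 4.3.3 fitted 4 group means to all 12 arrays (8 residual and 5.05 prior degrees of freedom), with no covariate, and was tested on simulated data. No 2 arrays held identical values.

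Background on each array was the highest of 22 nonspecific control sets of graded GC content (3.21 to 3.72). These replaced the bacterial spike sets named in the design, which carry added RNA, and the control set of GC class 25 (4.72 to 5.88) was tried as a higher floor after the data were seen. Promoters and names came from RefSeq. Protein sequences were not analysed here.

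The members and lists were chosen with earlier results of these data known. Named beside the 8 genes were up to 2 called genes of each list with the largest change in each comparison with CTR, the 2 nearest patterns of each member, and Got1, Pck1, Prodh2 and Psat1. Alternatives tried were median centring, cyclic loess, the average of all or only specific probe sets, genes above the median signal, trended and robust eBayes, array weights, only the arrays compared, a replicate block, the methods' test and leaving out arrays.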

Additional observations from a re-analysis of the deposited data

Results flagged for a closer look

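The effect of STS differed with and without oxaliplatin for 4 of the 8 genes, by limma's test of the interaction. The difference (the change by STS with oxaliplatin minus that without) was 1.20 on the log2 scale for Gpt2, 1.02 for Aldh18a1, 0.53 for Oat and 1.08 for Pck2, with adjusted p = 0.00147, 0.000342, 0.00588 and 0.0491. The call of Pck2 was lost without any 1 of 10 arrays (adjusted p up to 0.12). Dixon's test was not run on single genes, since groups of 3 arrays are too small for it.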

How the results depend on the processing

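The number of the 8 genes called kept within 1.5 times its value except in the following. The methods' test (unequal variances, Benjamini-Hochberg) called 1 gene in STS against CTR instead of 4, and 2 in OXP against CTR instead of 5, and at the unadjusted threshold 5 and 5. The share of all genes called by that test is not given here, so these counts are not read as particular to the 8 genes. In STS+OXP against OXP, 1 gene instead of 0 was called without OXP replicate 2, and 1 without OXP replicates 1 and 2. With each array left out in turn, 5 to 5 genes were called in STS+OXP against CTR, 5 to 6 in OXP, 3 to 5 in STS, 4 to 4 in STS+OXP against STS, 0 to 1 in STS+OXP against OXP and 3 to 5 for the interaction. Glud1 turned lower and was called with the probe set 1416209_PM_at (-0.40 in STS+OXP and -0.29 in STS) and with the average of its probe sets (-0.20 in STS+OXP, adjusted p = 0.0128), where the highest set gave 0.0004 in STS+OXP and 0.04 in STS. A sign change of a value that was called in neither setting was not counted. Got2 was called in OXP with the average of its sets (-0.50, adjusted p = 0.0492). The STS change of Pck2 was called under cyclic loess, the average of sets, genes above the median signal and array weights (adjusted p = 0.0498, 0.0112, 0.0473 and 0.00316). The interaction of Pck2 was not called under median centring, specific sets, trended and robust eBayes or the replicate block (adjusted p = 0.0683, 0.0514, 0.0896 and 0.0552), while that of Prodh was called under median centring, cyclic loess and genes above the median signal (0.0401, 0.0432 and 0.0416). The second probe set of Pck2 gave no called interaction either (adjusted p = 0.137 over all probe sets). Of the values of single genes in the 6 comparisons, 449 kept their side of the threshold, with no called change of direction, under the settings other than leaving out 1 array, 11 gained and 5 lost a call, and with 1 array left out 554 kept theirs, 7 gained and 15 lost a call. The causes were not tested. Specific probe sets left out Gpt. Same-numbered arrays did not deviate together over all genes (18 pairs, correlations -0.20 to 0.10), so these values show no pairing by number. The labels do not say whether the numbers stand for shared cultures. With the numbers as a replicate block, 3 genes had a called interaction instead of 4. The counts were then 5 in STS+OXP, 5 in OXP and 4 in STS against CTR, 4 in STS+OXP against STS and 0 in STS+OXP against OXP. With the GC class 25 control as floor, 20 instead of 32 of the gene and group means lay above background. Over all genes, the count called lower in STS was between 716 (without STS replicate 3) and 2075 (array weights) instead of 1152, the count higher in STS+OXP against STS reached 2881 with array weights instead of 1854, and the count of positive interactions was 271 without STS replicate 3 instead of 432. In STS+OXP against OXP, 759 genes were lower and 407 higher without OXP replicate 2 instead of 1 each, and 3 lower and 1 higher under median centring. Signal near background limits Gpt and Prodh most.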
